A study of Mus musculus with 6 samples.

Results

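The collagen genes were taken as every entry of the deposited gene table whose symbol has the form Col, a number, the letter a and a number. There were 44 of them among 24972 entries. They were grouped as 11 fibrillar chains, 9 chains of the basement membrane types IV, VII, XVII and XVIII, 9 FACIT chains (fibril-associated collagens with interrupted triple helices) and 15 others. Poly(A) RNA of basal epidermal cells, isolated by flow sorting from the back skin of mice, had been sequenced in 3 control and 3 Piezo1 cKO libraries. Every sample carried p63CreER, Piezo1fl/fl and R26-mTmG. p63CreER is a Cre recombinase that tamoxifen activates in basal keratinocytes, Piezo1fl/fl is a floxed gene for a mechanically gated cation channel, and R26-mTmG is a fluorescent membrane reporter of recombination. The control group had received vehicle and the cKO group tamoxifen, as 3 injections of 20 ug each, with treatment between postnatal days 45 and 52. Tamoxifen exposure and Piezo1 deletion therefore cannot be told apart, and the labels do not say that each sample came from its own animal, so the p-values speak only to the variation among these 6 libraries. They do not state how old the mice were at collection.

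Collagens are trimeric proteins built from chains with long stretches in which glycine recurs at short, regular intervals. Basal keratinocytes sit on a basement membrane and help to build it: collagen XVII spans the keratinocyte membrane in the hemidesmosome, collagen IV forms the sheet-like network, and collagen VII makes the anchoring fibrils that tie the sheet to the dermis. Fibrillar collagens such as I, III and V are mainly products of dermal fibroblasts, and FACIT collagens decorate fibrils.

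The sequences upstream of Col17a1 and Col7a1 are shown because these were the most abundant collagen transcripts, and the start region of Col4a1 and Col4a2 because that pair had parallel values across the libraries. All come from RefSeq on GRCm38.p6, printed 5′ to 3′ on the strand of the gene (plus strand for the pair). Capitals mark matches on either strand to TATAAA, to the CCAAT box or to the GC box GGGCGG.
Col17a1, chr19:47692095-47692292, minus strand: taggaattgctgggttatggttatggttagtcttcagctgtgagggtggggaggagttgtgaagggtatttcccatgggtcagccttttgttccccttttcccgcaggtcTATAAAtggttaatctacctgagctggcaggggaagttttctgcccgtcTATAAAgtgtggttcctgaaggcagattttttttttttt
Col7a1, chr9:108953336-108953585, plus strand: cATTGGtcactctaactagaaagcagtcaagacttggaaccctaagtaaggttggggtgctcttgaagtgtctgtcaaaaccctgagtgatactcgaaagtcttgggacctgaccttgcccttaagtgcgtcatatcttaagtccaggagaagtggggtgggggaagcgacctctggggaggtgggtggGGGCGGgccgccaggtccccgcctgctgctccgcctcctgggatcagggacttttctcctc
Col4a1 and Col4a2, chr8:11312805-11312826, plus strand: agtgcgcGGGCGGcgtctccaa

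The Col17a1 stretch ends where the first GENCODE exon begins and held TATAAA at 2 places, whose first bases lie 88 and 39 bases before that exon. The Col7a1 stretch held GGGCGG, with its first base 61 bases before the gene's start, and CCAAT on the opposite strand. Col4a1 and Col4a2 start head to head, and the 22 bases shown lie between their starts and belong to the first exons of both. The Col4a3 and Col4a4 starts are 72 bases apart, and those of Col4a5 and Col4a6, on the X chromosome, 1309 bases. Among 32851 windows of 300 bases around RefSeq gene starts, TATAAA was found in 13.6%, CCAAT in 37.4% and GGGCGG in 35.7%. Of the 38 such windows listed for collagen genes, 5 held TATAAA, 13 held CCAAT and 23 held GGGCGG. These matches describe the letters and not binding.

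Values are normalized counts, which are read counts scaled per library by the authors. Approximate depth was 20.8 to 24.5 M reads in the controls and 15.6 and 14.2 M in cKO replicates 2 and 3, but 1.05 M in cKO replicate 1. In that shallow library 1 read weighed about 12.2 normalized counts, against 0.491 to 0.76 in the others, so a collagen under 36.7 in cKO replicate 1 rested on fewer than 3 reads. Basal keratin genes marked all 6 libraries, with Krt5 between 228148 and 266942 normalized counts. Piezo1 was lower in every cKO library (380, 565 and 399, against control values of 806, 1098 and 1476). Its log2 fold change was -1.31 (SE 0.27), with an exact permutation p of 0.1, the smallest that 3 against 3 can give, and an adjusted p of 0.744 in limma. Xist marked control replicate 1 and cKO replicates 1 and 2 as female, and the other libraries held Y-linked transcripts, so sex was divided unequally between the groups.

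Of the 44 collagen genes, 7 were listed at 0 in every library (Col10a1, Col11a1, Col13a1, Col22a1, Col24a1, Col26a1 and Col6a4). A further 16 were above 0 with a mean under 10 normalized counts, and 21 passed the filter of a mean of at least 10. Over all 24972 entries, 7639 were at 0 in every library and 12239 passed that filter. Nothing is read from the count of 21 collagens. All 9 basement membrane genes passed it, against 4 of 11 fibrillar, 3 of 9 FACIT and 5 of 15 other genes. A mean of 100 or more was reached by 10 genes, of which 7 were basement membrane genes, 2 were FACIT genes (Col12a1 and Col16a1) and 1 was Col23a1. Together the 44 genes took 0.513% to 0.564% of all normalized counts in a library.

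Levels of different genes were compared as normalized counts per kb of exon. Col17a1 led by a wide margin at 8819 ± 1076 per kb over the controls and 8013 ± 633 over the cKO libraries (SD, 3 libraries a group), which is 7.55% to 13.1% of the level per kb of the basal keratin gene Krt14 in the same library. It made up 81.9% to 86.3% of the collagen level per kb in the 6 libraries, and the basement membrane class as a whole 93.9% to 96.3%. The fibrillar class came to 0.104% to 0.176%, the FACIT class to 2.12% to 3.90% and the others to 1.47% to 2.44%. In controls Col7a1 followed at 383 ± 37.3 per kb, with a range apart from both its neighbours. Col4a6, Col16a1, Col4a5, Col23a1 and Col18a1 came next, at control means of 204 to 153 per kb. From Col4a6 to Col18a1 the ranges of neighbours over the control libraries overlapped, while Col18a1 lay apart from Col4a2 below it. Col4a2, Col12a1 and Col4a1 lay at 84.9, 65.4 and 56.0 per kb and also overlapped in turn. Of the 20 neighbouring pairs in this order, 6 had ranges that lay apart.

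**Figure D1:**
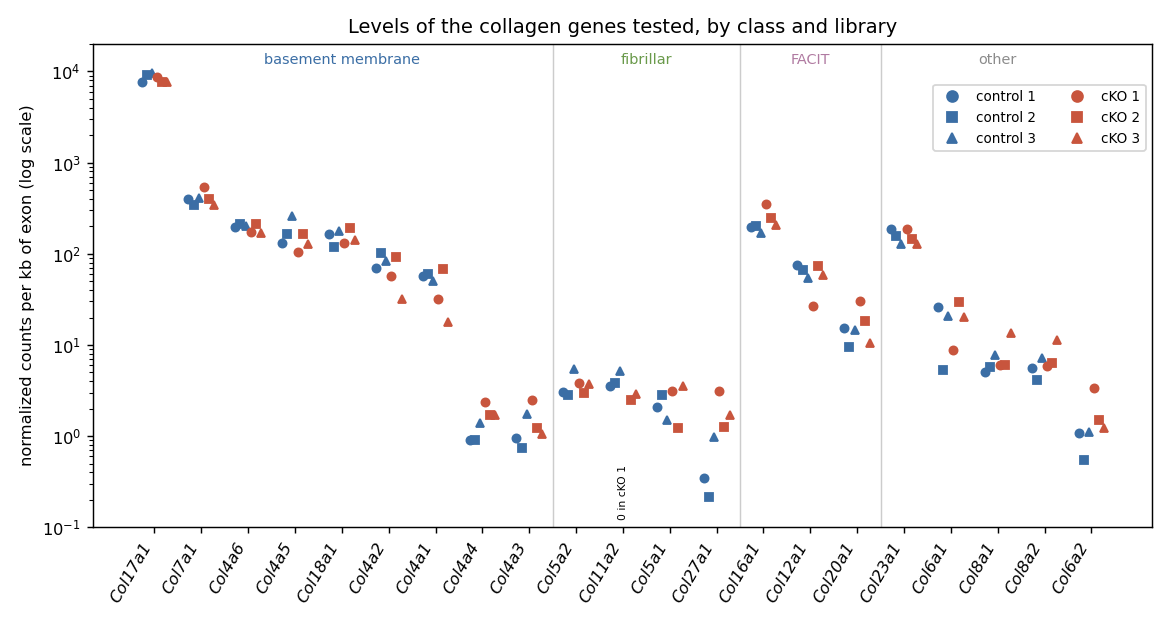
Level of each of the 21 tested collagen genes in each library, as normalized counts per kb of exon on a log axis, ordered by class and by mean level, with blue for control and red for cKO libraries and 1 point per library. Col17a1 stands highest in every library, above Col7a1 and the type IV genes, and the fibrillar genes lie below 10 per kb.

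In limma, 0 of the 21 tested collagens reached an adjusted p under 0.05, and 0 of all 12239 genes tested did (0%, smallest adjusted p 0.744). At an unadjusted p under 0.05 there were 0 collagens in either direction, against 1.47% of all genes higher and 3.46% lower in cKO. Equal library totals and limma-voom each gave 2 higher collagens at that level, Col16a1 and Col27a1, and the split over all genes was 180 higher and 423 lower as deposited, 261 and 260 with equal totals, and 433 and 223 with limma-voom. Of the 21 tested, 12 had higher and 9 lower fitted values in cKO, where 47.1% of all genes were higher and 52.9% lower. The median log2 fold change was 0.14, against -0.03 over all genes, and over the 37 collagens above 0 in any library it was -0.02. Without control replicate 2 the median was -0.0122, with 10 higher and 11 lower, and without cKO replicate 1 it was 0.0186. The groups did not overlap at 4 collagens with higher values in cKO (Col16a1, Col27a1, Col4a4 and Col6a2) and at 1 with lower values (Col11a2), where 5.16% and 5.7% of all genes did so. Nothing is read from the count of 4, since Col27a1 and Col6a2 passed the filter only through the cKO libraries in which they were higher, and Col27a1, Col4a4 and Col6a2 rested on about 2 to 3 reads in cKO replicate 1.

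**Figure D2:**
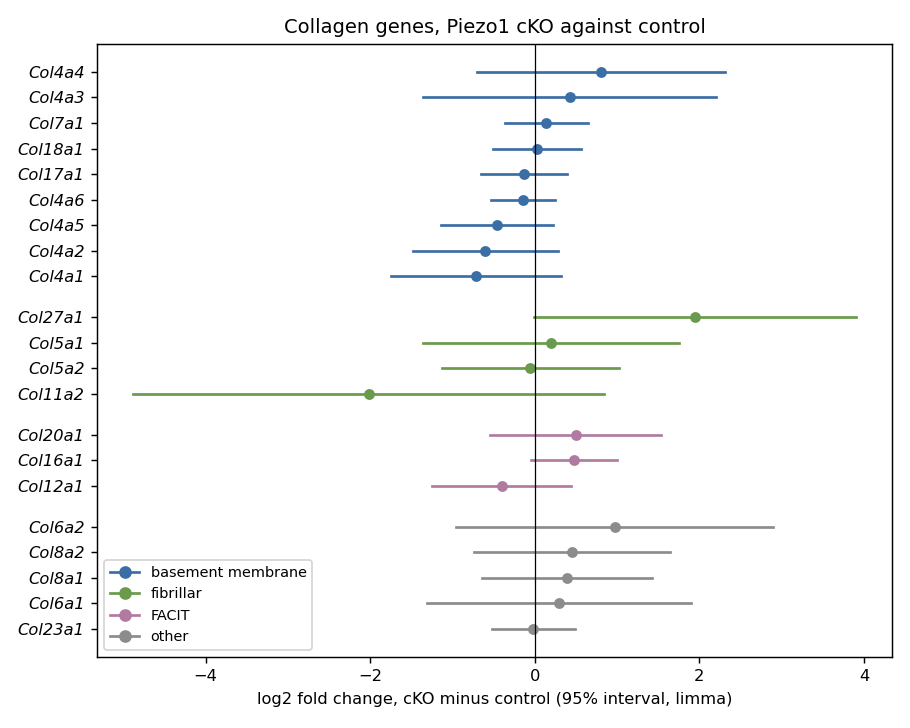
Log2 fold change of each tested collagen gene, cKO minus control, with limma's 95% interval, coloured by class. Each of the 21 intervals includes 0, from Col11a2 at -2.02 to Col27a1 at 1.95.

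Col17a1 (chromosome 19, 47646344 to 47692094, minus strand, GRCm38, GENCODE M21) encodes the transmembrane collagen of the hemidesmosome. Controls 1 to 3 held 45702, 55314 and 58011 normalized counts of it, and cKO replicates 1 to 3 held 52549, 45712 and 46238. The groups overlapped, since control replicate 1 was the lowest library of all. The difference was -0.13 on the log2 scale (SE 0.22, 95% interval -0.65 to 0.39), so the interval runs from 0.636 to 1.31 times the control level. Col7a1 (chromosome 9, 108953586 to 108984875, plus strand), the chain of the anchoring fibrils, gave 4085, 3501 and 4224 in controls and 5490, 4141 and 3538 in cKO. The highest value came from the shallow library, and without it the log2 fold change was -0.04 in place of 0.14 (SE 0.22). Col18a1, the proteoglycan collagen whose end fragment is endostatin, gave 1156, 828 and 1241 in controls and 933, 1360 and 985 in cKO, with groups that overlapped (0.02, SE 0.23).

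The 6 type IV genes fell into 3 head-to-head pairs of very different level. Col4a1 and Col4a2, whose chains form the network common to most basement membranes, varied more among the cKO libraries than among the controls. For Col4a1 the control values were 426, 450 and 378 normalized counts, and cKO replicates 1 to 3 held 236, 515 and 133. For Col4a2 the control values were 463, 669 and 553, and the cKO values 377, 618 and 209. For both genes cKO replicate 3 was the lowest library and cKO replicate 1 the next, while cKO replicate 2 lay within or above the controls. The log2 fold change was -0.72 (SE 0.44) for Col4a1 and -0.60 (SE 0.38) for Col4a2, with unadjusted p of 0.148 and 0.153 in limma and adjusted p of 0.744 for both. Without cKO replicate 2 the values were -1.23 and -0.98 with an unadjusted p under 0.05 (adjusted p = 0.378 for both), and without cKO replicate 3 they were -0.26 and -0.20. In the shallow library Col4a1 rested on about 19 reads, with an exact Poisson interval of 140 to 363 normalized counts, and Col4a2 on about 31 reads, with an interval of 258 to 539. Such intervals cover counting error only. The ratio of Col4a1 to Col4a2 per kb was 0.815, 0.596 and 0.607 in controls and 0.554, 0.739 and 0.566 in cKO, so the groups overlapped in this ratio.

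Col4a5 and Col4a6 encode the chains that form a second type IV network in the epidermal basement membrane. Col4a6 was among the steadiest collagens, at 1569, 1682 and 1621 in controls and 1381, 1689 and 1345 in cKO (log2 fold change -0.15, SE 0.17, 95% interval -0.54 to 0.24). Col4a5 was at 883, 1105 and 1754 in controls and 697, 1100 and 855 in cKO (-0.46, SE 0.29). Control replicate 3 stood apart from the other controls in Col4a5, and without it the log2 fold change was -0.19. Both genes are X-linked, and the 3 libraries with Xist held 697 to 1100 normalized counts of Col4a5 against 855 to 1754 in those with Y-linked transcripts. The Col4a3 and Col4a4 pair, whose chains are known from the kidney filter, was close to the floor. Col4a4 gave 9.58, 9.69 and 14.8 in controls and 25.4, 18.2 and 17.9 in cKO, with groups that did not overlap (0.81, SE 0.65, unadjusted p 0.249 in limma), but the cKO replicate 1 value was about 2 reads. Col4a3 gave 7.35 to 17.4 in controls and 10.6 to 24.6 in cKO.

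**Figure D3:**
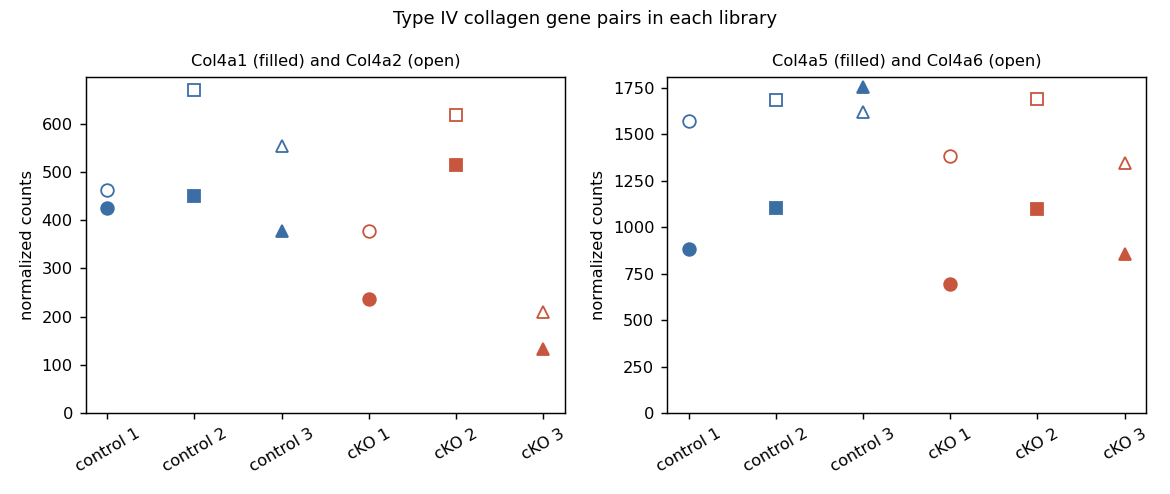
Normalized counts of Col4a1 (filled) and Col4a2 (open) on the left and of Col4a5 (filled) and Col4a6 (open) on the right, 1 point per gene and library, control in blue and cKO in red. Col4a1 and Col4a2 are low together in cKO replicate 3, at 133 and 209, while cKO replicate 2 reaches 515 and 618.

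Among FACIT genes, Col16a1, which is known from the dermal-epidermal junction, was the most abundant. Its values were 1315, 1379 and 1130 normalized counts in controls and 2345, 1668 and 1410 in cKO. Every cKO library lay above every control, although cKO replicate 3 exceeded control replicate 2 by little. The difference came to 0.48 on the log2 scale (SE 0.22, 95% interval -0.04 to 0.997), with an unadjusted p of 0.0678 and an adjusted p of 0.744 in limma, and it was 0.27 without the shallow cKO replicate 1. Col12a1, which binds fibrils of collagen I, gave 1160, 1008 and 818 in controls and 412, 1112 and 903 in cKO. Only the shallow library was low, at about 34 reads, and without it the log2 fold change was 0.02 in place of -0.40 (SE 0.36). Col20a1 gave 48.6 to 78.3 in controls and 54.3 to 156 in cKO (0.50, SE 0.45). The highest value is about 13 reads of the shallow library, without which the difference was 0.13, and leaving out control replicate 2 gave 0.28 and cKO replicate 3 gave 0.88. The remaining 6 FACIT genes did not pass the filter. They were Col9a1, Col9a2, Col9a3, Col14a1, Col19a1 and Col22a1, the last of which was at 0 throughout.

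Of the other collagens, Col23a1 was the one above a mean of 100. It encodes a transmembrane collagen found in keratinocytes and gave 1060, 894 and 734 in controls and 1083, 836 and 739 in cKO, 2 ranges that nearly coincide (log2 fold change -0.02, SE 0.22, 95% interval -0.53 to 0.49). Its sign turned to 0.03 with equal library totals and 0.07 with quantile normalization. Col8a1 and Col8a2, which form the short-chain network collagen VIII, had their highest value in cKO replicate 3, at 106 for Col8a1 against 39.2 to 60.9 elsewhere and 50.8 for Col8a2 against 18.5 to 32.3. Neither pair of groups lay apart. Collagen VI is assembled from chains of Col6a1, Col6a2 and a further chain such as Col6a3, but the 3 genes were unequal here. Col6a1 gave 113, 23.2 and 90.9 in controls and 38.7, 131 and 89.0 in cKO, and among collagens with a mean above 50 it varied most between controls (SD 46.9 on a mean of 75.8). Col6a2 gave 4.57 to 9.35 in controls and 10.2 to 28.3 in cKO, and it passed the filter through the cKO libraries. Col6a3 was at 2.45 or less in all 6. Col6a5 and Col6a6 were above 0 in control replicate 3 alone, at 0.603 and 1.21, about 1 and 2 reads.

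The fibrillar collagens were low, and 0 of the 11 reached a mean of 100 normalized counts. Several rested on few reads, but Col5a2 had about 55 to 86 reads in the controls. Col1a1 (chromosome 11, 94936224 to 94953042, plus strand), the main chain of the most abundant dermal collagen, had control values of 4.68, 8.18 and 4.09 normalized counts and cKO values of 0, 3.81 and 16.9. Its partner Col1a2 gave 5.94 to 7.77 in controls, 0 in cKO replicate 1 and about 15 in the others. Col3a1 rested on about 2 reads or fewer in every library, and its 12.5 normalized counts in cKO replicate 1 are about 1 read. Col5a2 had 27.0 to 51.7 normalized counts in the control libraries and 28.3 to 36.5 in the others (log2 fold change -0.05, SE 0.46), and Col5a1 gave 12.7 to 23.8 and 10.4 to 29.8. Col27a1, a minor fibrillar collagen known from cartilage, gave 4.59, 2.84 and 12.6 in controls and 40.3, 16.4 and 22.4 in cKO. Its groups did not overlap, and the log2 fold change was 1.95 (SE 0.84, unadjusted p 0.0510, adjusted p 0.744 in limma). It averaged 6.69 in controls and so passed the filter through the cKO libraries. Col11a2 ran the other way, with 24.1, 26.1 and 36.0 in controls and 0, 17.0 and 20.0 in cKO (-2.02, SE 1.23), and the fold was -0.59 without cKO replicate 1, where it was listed at 0.

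Collagens were next set out by the cells that usually make them, using lists from textbook knowledge. The 5 genes of keratinocytes (Col17a1, Col7a1, Col4a5, Col4a6 and Col18a1) summed to 53394 to 66851 normalized counts in controls and 52961 to 61050 in cKO. The 9 genes of dermal fibroblasts (Col1a1, Col1a2, Col3a1, Col5a1, Col5a2, Col6a1, Col6a2, Col6a3 and Col14a1) summed to 103 to 183 and 155 to 209. Col6a1 alone gave 23.2 to 131 of these counts. The sum of 155 is from cKO replicate 1, where 1 of the 9 genes reached 3 reads. Col4a1 and Col4a2, which both kinds of cell make, summed to 889 to 1119 and 343 to 1133. The FACIT genes Col12a1 (412 to 1160 over all libraries) and Col16a1 (1130 to 2345) were in none of these source lists. The fibroblast sum therefore depends on the genes chosen for it, and the source of Col12a1 and Col16a1 was not tested. Of the 13 other fibroblast markers, 12 averaged under 10 normalized counts, and Pdgfrb and Prrx1 were at 0 in every library. Fbln1 was the exception, at 83.2 to 123 in controls and 41.8 to 162 in cKO, and the other 12 summed to 8.52 to 22.2 and 9.99 to 24.5. Dcn, the fibroblast proteoglycan decorin, was at 11.9 or less in all 6 libraries. Fewer cells of a type and less RNA per cell cannot be told apart in such bulk samples.

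**Figure D4:**
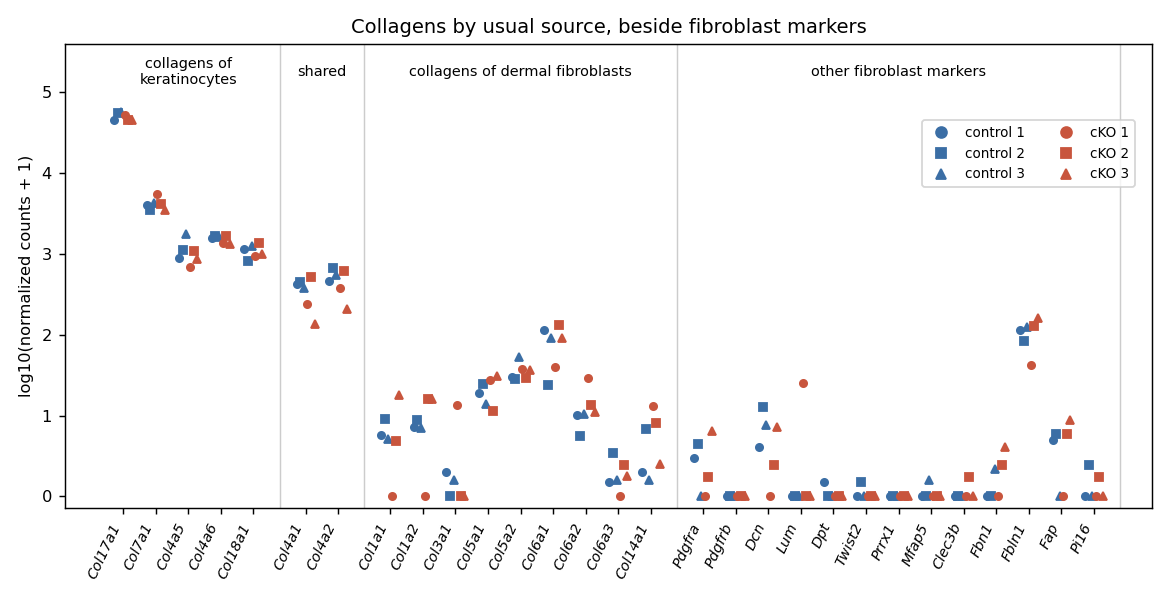
Values of collagens grouped by their usual cell source, and of other fibroblast markers, as log10(normalized counts + 1) in each library, control in blue and cKO in red. Most fibroblast markers lie at or near 0 except Fbln1, and Col17a1 is the highest gene in all 6 libraries.

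Markers of further cell types were read beside these values. The 6 endothelial genes all averaged under 10 and summed to 6.71 to 9.98 in controls and 10.9 to 24.8 in cKO. The 5 pericyte and smooth muscle genes summed to 221 to 396 and 431 to 488, of which Cspg4 gave 196 to 369 and 396 to 451. The 7 Schwann cell and melanocyte genes summed to 27.4 to 33.0 and 46.2 to 87.3, and the 4 leukocyte genes to 846 to 1009 and 1332 to 5917, highest in cKO replicate 3, the library with the lowest Col4a1 and Col4a2. These 4 sums did not overlap between the groups. The 4 hair follicle genes summed to 685 to 1689 and 794 to 1409, and the 2 adipocyte genes to 0 in controls and up to 12.1 in cKO. The 6 suprabasal genes summed to 45248 to 106471 and 84996 to 100847, and the 6 basal genes to 484348 to 536485 and 459078 to 654391. The part of these cell types in the collagen values was not tested.

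Collagen chains need enzymes and chaperones to fold. Of the 18 folding and modification genes 14 passed the filter and were tested, where 12239 of all 24972 entries did. Fitted values in cKO were higher for 8 and lower for 6 (47.1% and 52.9% of all genes). At an unadjusted limma p under 0.05 there were 0, against 1.47% of all genes higher and 3.46% lower. The median log2 fold change was 0.03. P3h1 had the lowest fitted value (-1.71, SE 1.42). It was at 0 in the shallow library, with other cKO values of 39.3 and 48.3 against 35.5 to 46.9 in controls. P4hb, the beta subunit of prolyl 4-hydroxylase, had the highest mean, with control libraries at 3642 ± 344 normalized counts and cKO libraries at 3531 ± 406 (SD, 3 libraries a group). Ppib, a prolyl isomerase that acts on procollagen, gave 1861 ± 299 and 1817 ± 251. Serpinh1, the collagen chaperone HSP47, gave 1169 ± 85.9 and 1228 ± 412. Crtap, a partner of prolyl 3-hydroxylase, was at 288, 231 and 252 in controls and 356, 332 and 294 in cKO, so its groups did not overlap (0.35, SE 0.20). P4ha1, a catalytic subunit of prolyl 4-hydroxylase, was at 1266, 1508 and 1413 in controls and 661, 1280 and 1206 in cKO (-0.47, SE 0.27), or -0.16 without the shallow library.

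Of the 16 secretion, trimming and crosslinking genes 6 were tested. All 6 had lower fitted values in cKO (median log2 fold change -0.30), where 52.9% of all genes did. At an unadjusted p under 0.05 there was 1, against 3.46% of all genes, and in quantile normalization Mia3 turned to 0.02. Bmp1, the protease that removes the carboxy-terminal propeptide of procollagens, had control values of 733, 869 and 681 normalized counts and cKO values of 556, 585 and 540. Its groups did not overlap, and the log2 fold change was -0.43 (SE 0.17, unadjusted p 0.0351, adjusted p 0.744 in limma). The unadjusted p was 0.0815 with equal library totals, 0.0760 with quantile normalization and 0.12 with limma-voom, and at most 0.168 with a library left out. Adamts14, a procollagen amino-terminal protease, was the most abundant, at 1681 ± 113 in controls and 1407 ± 385 in cKO. Mia3, which loads procollagen into transport carriers, gave 1102 ± 58.8 and 1029 ± 45.3. The lysyl oxidases that crosslink collagen were scarce. Loxl4 gave 20.7, 39.2 and 60.1 in controls and 0, 16.6 and 21.3 in cKO (-2.36, SE 1.25), or -0.93 without cKO replicate 1. Lox and Loxl1 were at 0 in all libraries but for Lox in the shallow one, where 24.5 is about 2 reads.

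Collagen receptors bind the triple helix at the cell surface. Of 10 receptor genes 7 were tested, 1 with a higher and 2 with a lower cKO value at an unadjusted p under 0.05, against 1.47% and 3.46% of all genes, and 0 passed adjustment. Mrc2, the endocytic receptor Endo180 that takes up collagen for degradation, had 237, 158 and 179 normalized counts in the cKO libraries, against control values of 73.8, 76.6 and 96.5. Every cKO library lay well above every control, by 1.20 on the log2 scale (SE 0.27, 95% interval 0.56 to 1.83) or 2.29-fold, with an unadjusted p of 0.00264 and an adjusted p of 0.744 in limma. Leaving out any 1 library gave 1.03 to 1.32. Itgb1 and Itga2 encode the subunits of the main collagen-binding integrin of keratinocytes, and Itgb1 also pairs with the alpha chains that bind laminin. Itgb1 was at 4864, 7392 and 9106 in controls and 2886, 4097 and 3890 in cKO, with all cKO values below the controls (-0.94, SE 0.28, unadjusted p 0.00994, adjusted p 0.744 in limma). Itga2 was at 1193, 1044 and 1835 in controls and 697, 1027 and 769 in cKO, and its groups were parted by little (-0.68, SE 0.26, unadjusted p 0.0316, adjusted p 0.744 in limma). Without control replicate 3 Itga2 gave -0.44. The receptor tyrosine kinase gene Ddr1 gave 3773 ± 290 in controls and 4187 ± 282 in cKO (0.15, SE 0.17). Ddr2, its relative in mesenchymal cells, gave 118, 112 and 236 in controls and 23.5, 102 and 84.5 in cKO, where the lowest value rests on about 2 reads (-1.29, SE 0.59), and without that library the difference was -0.64.

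**Figure D5:**
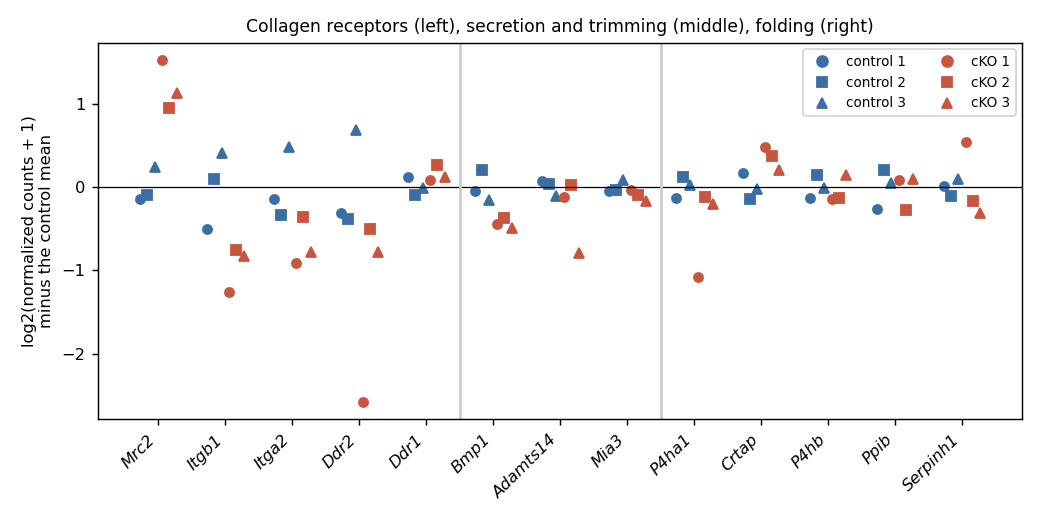
Collagen receptor, secretion and folding genes in each library, as log2(normalized counts + 1) minus the mean of the 3 controls, control in blue and cKO in red, 1 point per library. Mrc2 lies above 0 in all 3 cKO libraries and Itgb1 and Bmp1 below 0, while P4hb and Ppib scatter around 0 in both groups.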

How the data were processed

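Per the labels, poly(A) RNA was made into libraries with a strand-specific kit. Per the submitters' processing notes STAR and DESeq2 were used on GRCm38, without versions. The annotation, counter and use of strand were not given in those sources. The signal the authors deposited is a normalized count for every gene in each library. The smallest spacing between low values was taken as the weight of 1 read, but between 20 and 100 reads only 9.82% to 13.7% of values were within 0.05 of a whole read, so no count test was run on whole reads, and limma-voom was tried on approximate reads (values divided by that weight) as an alternative. The deposited signal was tested as log2(value + 1) in genes with a mean of at least 10. The test was limma 3.58.1 (R 4.3.3, statmod 1.5.0, trend, robust, two-sided, all 6 libraries, no covariates) with Benjamini-Hochberg adjustment over 12239 genes. The added 1 shrinks changes of weak genes, but a 0 in a single library can enlarge them. Col11a2, at 0 in cKO replicate 1, had -2.02, against -0.59 without that library. Folds are cKO minus control. Exon lengths and positions came from GENCODE M21, which held all 44 collagens. Promoter sequences came from RefSeq. The limma fit was tested on simulated counts, with changes planted in 200 genes, all with a mean above 100. The collagen genes, the lists and the tests were chosen with earlier results of these data known. Named genes are Piezo1, Col17a1, Col7a1, Col4a1 and Col1a1, collagens with a mean of at least 100, the 2 of smallest p per class, and the 2 of smallest p and 2 of highest mean per processing or receptor list, with marker lists given by sums and a few of their most abundant genes. Other collagens, Col6a5 among them, and Itga2, Ddr2, P3h1, Serpinh1, Lox family genes, Pdgfrb and Prrx1 were named after their values were seen. Alternatives were pseudocounts, filters, scalings, limma settings, limma-voom, a replicate block and leaving out each library.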

Additional observations from a re-analysis of the deposited data

How the results depend on the processing

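No collagen and no processing or receptor gene passed adjustment under any of the 15 alternatives, and 1 gene of the whole table, Amd1, did so in limma when cKO replicate 2 was left out (0 to 1 over the libraries left out). Collagens at an unadjusted p under 0.05 with higher values in cKO numbered 1 with a pseudocount of 10 (1.59% of all genes). The number was 1 of 37 tested with no filter (1.33%) and 2 with equal library totals (2.13%) and quantile normalization (1.98%). Limma without trend and robust (2.15%) and limma-voom (3.54%) also gave 2, and leaving out a library 0 to 1 (0.661% to 4.31%). With lower values the number was 1 with quantile normalization (3.1% of all genes) and 0 to 2 with a library left out. The 2 of 21 were Col4a1 and Col4a2 without cKO replicate 2. There 8.55% of all genes were lower at that level, so this count is near the background. The cause of these differences was not tested. Collagens with groups that did not overlap numbered 2 higher in quantile normalization (5.58% of all genes). With a mean of at least 50, where 13 collagens were tested, 1 was higher (4.63% of all genes) and 0 lower (6.08%). The counts reached 7 higher without control replicate 3 (7.03% of all genes) and 5 lower without cKO replicate 2 (18.3% of all genes). Of the 14 folding, 6 secretion and 7 receptor genes tested, 1 was higher and 3 lower at an unadjusted limma p under 0.05 (1.47% and 3.46% of all genes). No filter gave 2 higher and 4 lower (1.33% and 3.48% of all genes). Limma without trend and robust and limma-voom each gave 1 lower (1.99% and 1.82% of all genes). With a library left out 2 to 4 were lower, against 0.639% to 8.55% of all genes. The unadjusted p of Bmp1 was also above 0.05 with limma without trend and robust (0.0535) and with the replicate block (0.0723). Equal library totals reversed Col23a1 (0.0265) and Ppib (0.0137), quantile normalization Col23a1 (0.0737), P4hb (0.11), Ppib (0.11) and Mia3 (0.0226), and limma-voom P4hb (0.0154), Ppib (0.0233), Col5a2 (0.0350) and Serpinh1 (-0.0221). Over the libraries left out, the genes that changed sign ranged from -0.17 to 0.11 (Col23a1), -0.15 to 0.14 (Col18a1), -0.14 to 0.0229 (P4hb), -0.16 to 0.0890 (Ppib), -0.40 to 0.78 (Col6a1), -0.24 to 0.19 (Serpinh1), -0.0693 to 0.65 (Col5a1), -0.22 to 0.23 (Col5a2), -0.0356 to 0.28 (Col7a1) and -0.69 to 0.0244 (Col12a1). Over 35 of the named genes with a fitted fold change, 486 of 515 comparisons kept their direction. Col1a1 was not tested. The median over all genes moved from -0.03 to 0.10 with limma-voom. Deviations from the group means correlated at r = 0.09, -0.15 and 0.07 across genes in same-numbered samples, and at -0.17 to 0.18 in other pairs. With 3 libraries a group this cannot decide whether the numbers pair the samples. With the replicate block 0 collagens passed, with a median log2 fold change of 0.14 over the 21 tested. The FACIT median was -0.39 with no filter. The Col17a1 share of the mean collagen level per kb was 84.5%, or 83.6% by longest transcript. edgeR was not run because whole reads could not be recovered. Depth limits cKO replicate 1, where 15.2% of tested genes lay under 3 reads against 0.270% to 0.490% elsewhere.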
